A study of Homo sapiens with 18 samples.

Results

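The 10 genes described here encode the writers of the Polycomb mark on histone H3 lysine 27 and the enzymes that write, copy and oxidise DNA methylation. They are EZH1, EZH2, SUZ12, EED, DNMT1, UHRF1, DNMT3A, DNMT3B, TET1 and TET2, chosen by symbol, and each was found once among the 39368 genes of both count tables. RNA was sequenced from a pair of established human neuroblastoma lines with amplified MYCN, BE2C and Kelly, of which BE2C is a clonal subline. Cells of each line carried shAhR-1 or shAhR-2, lentiviral short hairpins against AHR, or the control vector pLKO-GFP. AHR is the gene of the aryl hydrocarbon receptor, which turns on transcription when a ligand binds it, and the series title concerns its part in keeping these cells less differentiated. Each of the 6 groups held 3 libraries, and the labels do not say whether these came from separate cultures, so p-values measure the spread between libraries, which may be technical. The labels also do not say how long the hairpins were expressed, whether infected cells were pooled, or whether the control vector carries a hairpin.

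Polycomb repressive complex 2 (PRC2) is built on SUZ12, a scaffold subunit, EED, which binds the mark the complex has made and stimulates it, and a catalytic subunit that is either EZH2 or EZH1. EZH2 is typical of dividing cells, whereas EZH1 persists in cells that have stopped dividing and is the weaker methyltransferase. DNMT1 copies DNA methylation onto the new strand behind the replication fork, guided there by UHRF1, which binds hemimethylated CpG sites. DNMT3A and DNMT3B methylate previously unmodified sites, and TET1 and TET2 oxidise 5-methylcytosine on the way to its removal. In neuroblastoma, EZH2 is known as a repressor of differentiation genes.

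The libraries held 32799682 to 45469353 counts each. AHR itself, which shares 29.4% of its exon bases with other annotated genes of the same strand, was near the detection limit. It had 8, 0 and 0 counts in the BE2C shAhR-1 libraries, 0, 0 and 0 in the BE2C shAhR-2 libraries and 4, 4 and 6 in the BE2C controls, too few to test. In Kelly it had 18, 11 and 22 counts in the libraries labelled shAhR-1, 0, 4 and 0 in the shAhR-2 libraries and 4, 26 and 29 in the controls. In Kelly AHR was called lower with shAhR-2 (log2 fold change -3.84 ± 0.81 SE, adjusted p = 3.41e-05). The groups still overlapped, with the highest shAhR-2 library at 0.0936 CPM (library-scaled counts) and the lowest control at 0.0852 CPM. No fall was called in the libraries labelled shAhR-1 (-0.10 ± 0.54, adjusted p = 0.889, edgeR quasi-likelihood test with Benjamini-Hochberg adjustment throughout). With this SE a moderate fall there is not excluded. The Kelly libraries labelled shAhR-1 are therefore called by their label, because a weak hairpin and a mistaken label cannot be told apart here, and no difference found in them is shown to follow a loss of AHR. In BE2C a loss of AHR could not be tested for either hairpin, and 1 shAhR-1 library had more counts (8) than any control. Differences in BE2C are therefore not shown to follow a loss of AHR either. All 10 neuroblastoma markers examined were detected in every group. Mitochondrially encoded genes took 24.3% to 24.9% of counts with shAhR-1, 20.5% to 25.1% with shAhR-2 and 18.8% to 19.4% in control in BE2C. Those shares were 17.4% to 17.7%, 15.2% to 15.8% and 14.5% to 15.6% in Kelly, in the same order of groups. With these genes left out before scaling, 6 of 10 members were called for shAhR-1 in BE2C, 10 for shAhR-2, 4 for the label shAhR-1 in Kelly and 9 for shAhR-2, the same numbers as with them.

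Promoter sequence is shown for the members whose start-site windows hold the letters of a site for E2F, the factors known for S-phase genes. Of these members, EZH2, SUZ12, DNMT1 and UHRF1 fell and EZH1 rose with shAhR-2 in both lines. EED and TET1 also fell and DNMT3A rose with shAhR-2 in both lines, and none of their windows held such letters. The letters were in 1 of 2 windows of EZH2 and in 2 of 3 windows of UHRF1. The windows are the RefSeq promoters of GRCh38.p14, 250 bases before to 50 after each annotated start. All 10 members matched by symbol, some with several windows. The E2F letters TTTCCCGC, TTTCGCGC, TTTGCCGC and TTTGGCGC were searched on both strands and are in capitals below, on the strand of the gene with 30 bases before and 20 after.
EZH1, chr17:42745128-42745185, minus strand: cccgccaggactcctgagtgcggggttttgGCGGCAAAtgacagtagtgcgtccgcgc
EZH2, chr7:148884263-148884320, minus strand: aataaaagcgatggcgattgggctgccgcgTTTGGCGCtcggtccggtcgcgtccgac
SUZ12, chr17:31936788-31936845, plus strand: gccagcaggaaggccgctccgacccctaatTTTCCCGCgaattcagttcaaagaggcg
DNMT1, chr19:10194928-10194985, minus strand: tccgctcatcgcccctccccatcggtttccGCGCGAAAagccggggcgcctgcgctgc
UHRF1, window 1, chr19:4909457-4909514, plus strand: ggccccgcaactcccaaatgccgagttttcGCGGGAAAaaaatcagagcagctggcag
UHRF1, window 2, chr19:4909954-4910011, plus strand: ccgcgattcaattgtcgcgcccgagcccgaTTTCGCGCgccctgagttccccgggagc
The match lies within 20 bases of the annotated start in EZH2, DNMT1 and the first UHRF1 window, and more than 100 bases before it in EZH1, SUZ12 and the second UHRF1 window. Of all 35116 windows, 3.3% hold these letters. The E-box CACGTG, the core sequence bound by MYC family proteins, occurred in windows of DNMT3A and TET2 and in 7.3% of all windows. The letters TNGCGTG of the AhR response element, searched on both strands, occurred in no window of any member and in 5.5% of all windows. E2F and E-box letters did not overlap in any member. These are matches of letters, not binding sites, and a window without them says nothing about binding elsewhere.

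The members differed in level in the control cells and between the lines, as the plot of levels by library shows. Levels compared between genes are library-scaled counts (CPM) per kilobase of exon (mean ± SD, n = 3). In BE2C controls DNMT1 was highest at 57.1 ± 1.6 CPM per kb, followed by EZH2 at 30.3 ± 0.656 and UHRF1 at 29.9 ± 1.41. SUZ12 was at 22.7 ± 0.732, DNMT3A at 9.61 ± 0.462, EED at 7.64 ± 0.132 and EZH1 at 6.59 ± 0.425 CPM per kb. TET1 at 3.80 ± 0.147, TET2 at 3.74 ± 0.102 and DNMT3B at 2.82 ± 0.317 CPM per kb closed the order. EZH2 and UHRF1, and TET1 and TET2, were neighbours whose levels overlapped within 1 SD. The maintenance pair and EZH2 thus stood above the other methyltransferases and the TET genes.

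**Figure D1:**
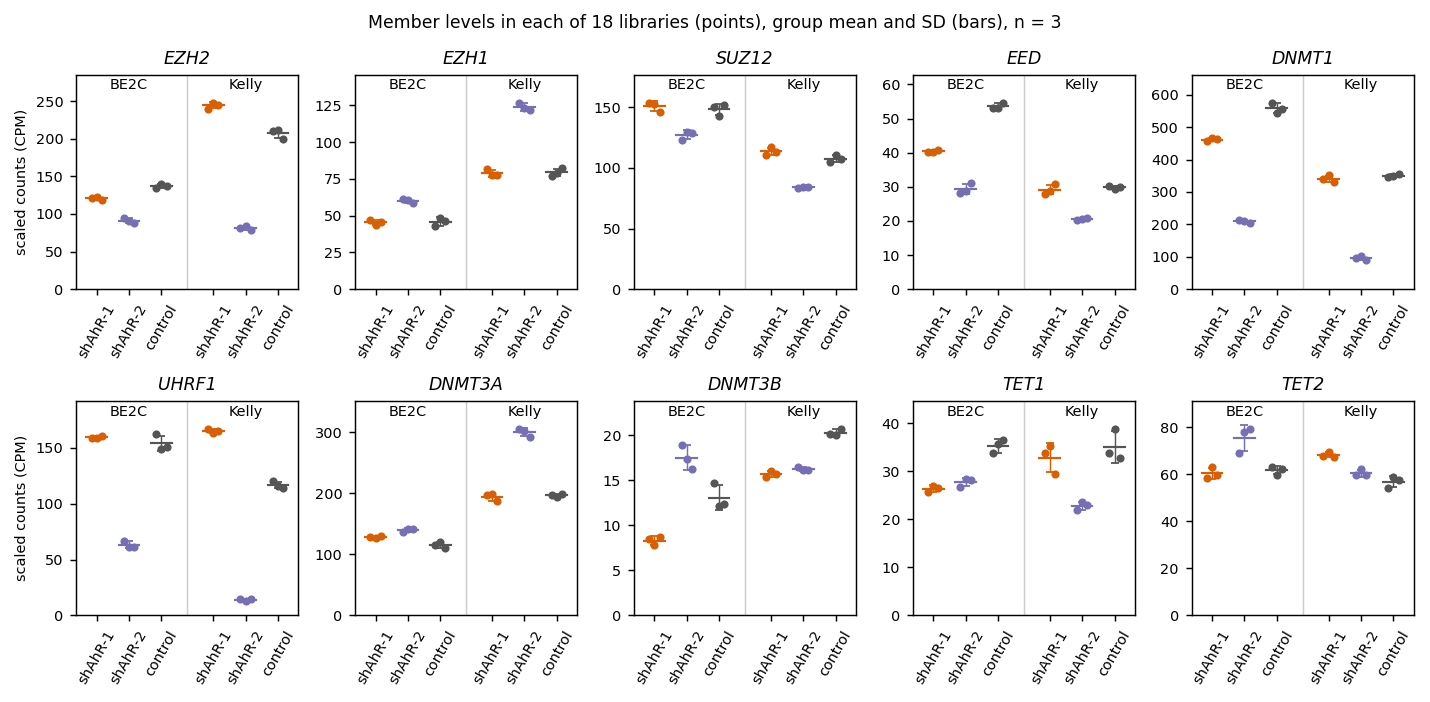
Level of each member in every library, in CPM on axes that start at 0, with shAhR-1, shAhR-2 and control side by side within each line. Points are libraries and bars are group means with SD; the shAhR-2 points of DNMT1 and UHRF1 lie below the controls in both lines, and in Kelly UHRF1 is near 14 CPM with shAhR-2 and above 110 CPM in the controls.

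In Kelly controls the order began with EZH2 at 45.7 ± 1.39 CPM per kb, ahead of DNMT1 at 35.8 ± 0.575 and UHRF1 at 22.6 ± 0.663. DNMT3A at 16.4 ± 0.17 and SUZ12 at 16.4 ± 0.435 were level, and EZH1 followed at 11.4 ± 0.366 CPM per kb. DNMT3B at 4.37 ± 0.0814 and EED at 4.25 ± 0.0635 overlapped within 1 SD, as did TET1 at 3.77 ± 0.351 and TET2 at 3.45 ± 0.137 CPM per kb. Between the control groups, 8 of 10 members differed, against 76.2% of the 17136 genes tested in both lines. Of these, 4 were higher in BE2C, as were 37.2% of genes, and 4 were lower, as were 39.0%. The control groups of the 2 lines did not overlap for 9 of 10 members, against 77.2% of genes. That count uses CPM, whose scaling was not exactly that of the fit. TET2 did not overlap, with means of 61.6 CPM in BE2C and 56.8 CPM in Kelly, yet its fitted difference was not called. Over all genes, this fitted difference shifted by a median of 0.0871 without a filter, 0.0698 under the mean CPM filter of 1 and 0.0355 with RLE size factors. In BE2C relative to Kelly, EED was higher by 0.76 ± 0.053 on the log2 scale, DNMT1 by 0.58 ± 0.031, SUZ12 by 0.38 ± 0.035 and UHRF1 by 0.31 ± 0.037. With the near copy SUZ12P1 summed, the SUZ12 difference was 0.11 (adjusted p = 0.0031). EZH1 was lower (log2 fold change -0.88 ± 0.045), as were DNMT3A (-0.86 ± 0.034), DNMT3B (-0.72 ± 0.080) and EZH2 (-0.68 ± 0.034), with adjusted p of 2.34e-10 or less for each of the 8 as counted. TET1 (-0.08 ± 0.063, adjusted p = 0.238) and TET2 (0.03 ± 0.047, adjusted p = 0.571) were not called.

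Against control, more members passed the test with shAhR-2 than with shAhR-1 in each line, and the difference between the hairpins is tested further on. In BE2C, 6 of 10 members were called with shAhR-1, 1 upward and 5 downward. Of all 15732 genes tested there, 52.3% were called (25.2% higher, 27.1% lower). With shAhR-2 all 10 were called in BE2C, 4 upward and 6 downward, where 75.1% of genes were (38.0% higher, 37.2% lower). In Kelly, 4 of 10 were called in the libraries labelled shAhR-1, 3 upward and 1 downward, where 60.5% of the 15871 genes tested were (29.6% higher, 31.0% lower). With shAhR-2, 9 of 10 were called in Kelly, 2 upward and 7 downward, where 75.4% of genes were (37.2% higher, 38.2% lower). The hairpin and control libraries did not overlap for 6 of 10 members in BE2C with shAhR-1 (57.7% of all genes) and for all 10 with shAhR-2 (77.0%). In Kelly they did not overlap for 5 members in the libraries labelled shAhR-1 (63.5% of all genes) and for 10 with shAhR-2 (77.5%). Calls were this common among all genes, so the member counts alone say little, and the sizes and directions carry the description. The median absolute log2 fold change was 0.17 over the members and 0.29 over all genes for shAhR-1 in BE2C, and 0.42 and 0.59 for shAhR-2 there. It was 0.09 and 0.32 in Kelly for the libraries labelled shAhR-1, and 0.59 and 0.55 with shAhR-2. Both hairpins were set against the same controls in a line, so their comparisons are not independent.

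**Figure D2:**
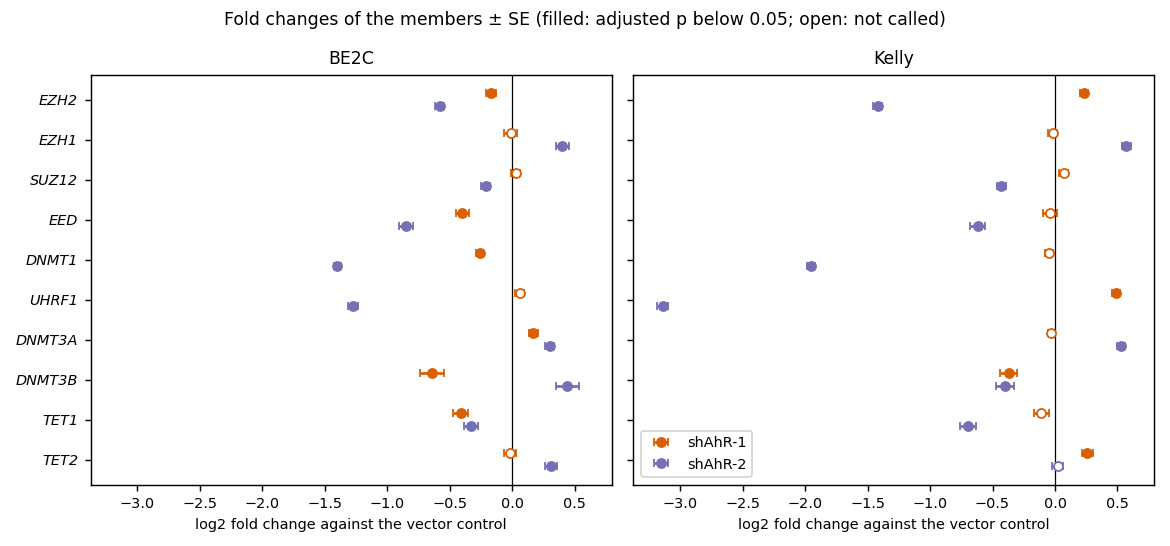
Log2 fold change of each member against the control of its line, with the bar giving ± 1 SE, for shAhR-1 and shAhR-2 in BE2C and Kelly; filled points were called at an adjusted p below 0.05. With shAhR-2, DNMT1, UHRF1 and EED extend farthest below 0 in BE2C and UHRF1, DNMT1 and EZH2 in Kelly, and EZH1 and DNMT3A lie above 0 with shAhR-2 in both lines.

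The maintenance pair showed the largest falls with shAhR-2. DNMT1 (chromosome 19, 10133345–10231286, minus strand, GRCh38, GENCODE release 29) had 458, 465 and 462 CPM in BE2C shAhR-1 libraries, 212, 210 and 205 CPM in BE2C shAhR-2 libraries and 576, 545 and 556 CPM in BE2C controls. Its Kelly values were 340, 351 and 331 CPM in the libraries labelled shAhR-1, 94.9, 101 and 90.9 CPM in shAhR-2 libraries and 345, 350 and 356 CPM in controls. The 3 BE2C groups did not overlap, whereas in Kelly the libraries labelled shAhR-1 and the controls did and the shAhR-2 libraries lay far below both. With shAhR-2, DNMT1 fell by 1.40 ± 0.029 on the log2 scale in BE2C, with 2.64-fold more in control (adjusted p = 3.84e-29), and by 1.95 ± 0.033 in Kelly, with 3.87-fold more in control (adjusted p = 9.15e-45). With shAhR-1 it fell by 0.26 ± 0.028 in BE2C (adjusted p = 7.79e-10), and in the Kelly libraries of that label it was not called (-0.05 ± 0.030, adjusted p = 0.146). Of the exon bases of DNMT1, 0.847% are shared with S1PR2. In bulk RNA, fewer cells with a transcript and less of it per cell cannot be told apart, here and for every member.

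UHRF1 (chromosome 19, 4903080–4962154, plus strand), which brings DNMT1 to replicated DNA, stood above control in the Kelly libraries labelled shAhR-1 and below it in those with shAhR-2. It had 167, 163 and 165 CPM in the Kelly libraries labelled shAhR-1, 14.6, 13.0 and 14.3 CPM in Kelly shAhR-2 libraries and 120, 116 and 114 CPM in Kelly controls. In BE2C it had 159, 159 and 161 CPM with shAhR-1, 66.9, 61.5 and 61.5 CPM with shAhR-2 and 162, 149 and 151 CPM in controls. The 3 Kelly groups did not overlap, and in BE2C the shAhR-1 values lay within the control range. With shAhR-2, UHRF1 fell by 3.14 ± 0.044 on the log2 scale in Kelly, the largest fold change of any member, with 8.80-fold more in control (adjusted p = 2.91e-48). In BE2C it fell by 1.27 ± 0.040 with shAhR-2 (adjusted p = 4.37e-24). It was higher by 0.49 ± 0.034 in Kelly libraries labelled shAhR-1 (adjusted p = 6.07e-18), where no fall of AHR was called. No call was made for that hairpin in BE2C (0.06 ± 0.038, adjusted p = 0.175). Without BE2C control library 1 that value was called (adjusted p = 0.0446), and over all alternatives the adjusted p was 0.0446 to 0.441.

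EZH2 (chromosome 7, 148807383–148884321, minus strand), the catalytic subunit of dividing cells, followed the same order of groups as UHRF1 in Kelly. It had 240, 248 and 245 CPM in the Kelly libraries labelled shAhR-1, 81.0, 84.1 and 78.9 CPM in Kelly shAhR-2 libraries and 210, 211 and 200 CPM in Kelly controls. In BE2C it had 121, 123 and 118 CPM with shAhR-1, 94.7, 90.7 and 87.5 CPM with shAhR-2 and 134, 140 and 137 CPM in controls. None of the groups overlapped within a line. EZH2 fell with shAhR-2 by 0.58 ± 0.037 on the log2 scale in BE2C (adjusted p = 1.78e-15) and by 1.42 ± 0.033 in Kelly (adjusted p = 6.87e-39), with 1.49-fold and 2.68-fold more in control. With shAhR-1 it fell by 0.17 ± 0.037 in BE2C (adjusted p = 0.000168), whereas it was higher by 0.23 ± 0.031 in the Kelly libraries of that label (adjusted p = 5.92e-09).

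EZH1 (chromosome 17, 42700275–42745049, minus strand), the catalytic subunit of resting cells, ran the other way with shAhR-2. It had 47.1, 43.7 and 45.4 CPM in BE2C shAhR-1 libraries, 61.2, 60.8 and 58.4 CPM in BE2C shAhR-2 libraries and 42.8, 48.7 and 46.6 CPM in BE2C controls. Kelly libraries held 81.7, 77.5 and 77.8 CPM where labelled shAhR-1, 127, 123 and 122 CPM with shAhR-2 and 77.1, 79.2 and 82.2 CPM in controls. The shAhR-2 libraries lay above all others of their line, and the shAhR-1 and control libraries overlapped. With shAhR-2, EZH1 rose by 0.40 ± 0.051 on the log2 scale in BE2C (adjusted p = 1.88e-08) and by 0.57 ± 0.036 in Kelly (adjusted p = 5.88e-20). With shAhR-1 it was not called in BE2C (-0.01 ± 0.052, adjusted p = 0.895) or in Kelly libraries of that label (-0.02 ± 0.037, adjusted p = 0.658).

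The balance of EZH1 to EZH2 counts within a library does not depend on how libraries are scaled, and it separated the groups of both lines. In BE2C the ratio of EZH1 to EZH2 counts was 0.390, 0.356 and 0.383 under shAhR-1, 0.647, 0.670 and 0.668 under shAhR-2 and 0.319, 0.347 and 0.340 in control. In Kelly it was 0.341, 0.312 and 0.318 in the libraries labelled shAhR-1, 1.57, 1.47 and 1.54 with shAhR-2 and 0.367, 0.376 and 0.412 in control. In the Kelly shAhR-2 libraries EZH1 therefore had more raw counts than EZH2, unlike in any other group. EZH1 has more annotated exon bases (6988) than EZH2 (4522). Per kilobase of exon the levels there overlapped, at 17.8 ± 0.422 CPM per kb for EZH1 and 18 ± 0.58 for EZH2 (SD, n = 3). On the log2 scale the ratio was higher with shAhR-2 by 0.98 in BE2C (-0.60 ± 0.029 with shAhR-2 and -1.58 ± 0.064 in control) and by 1.99 in Kelly (0.61 ± 0.051 and -1.38 ± 0.088). With shAhR-1 it was higher by 0.17 in BE2C (-1.41 ± 0.07, SD, n = 3) and differed by -0.25 in the Kelly libraries of that label (-1.63 ± 0.067). No groups overlapped in these 4 comparisons, and each gave p = 0.1 in the exact two-sided permutation test, which is the smallest that 3 libraries against 3 allow.

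**Figure D3:**
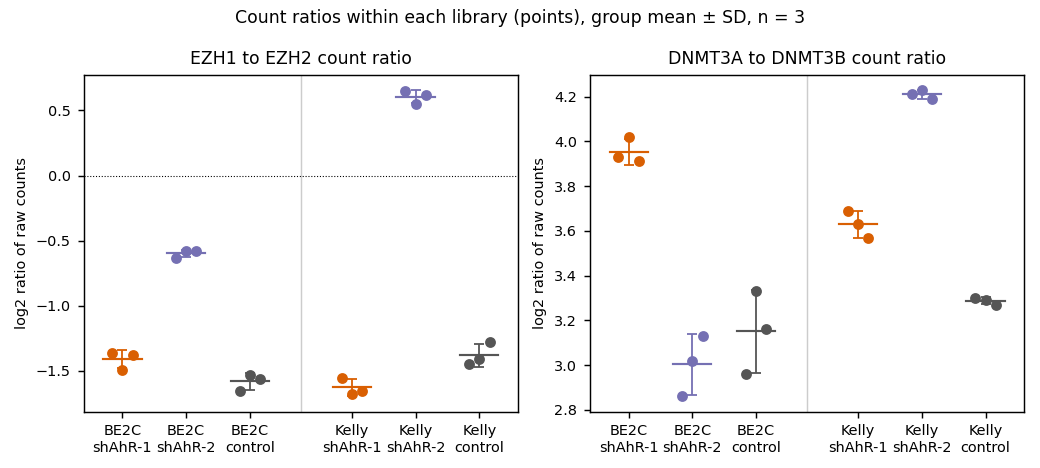
Log2 ratio of EZH1 to EZH2 counts (left) and of DNMT3A to DNMT3B counts (right) in each library, with group means as bars and their SD, for shAhR-1, shAhR-2 and control of each line. The EZH1 to EZH2 ratio is above 0 in the 3 Kelly shAhR-2 libraries only, and the DNMT3A to DNMT3B ratio of BE2C overlaps between shAhR-2 and control.

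EED and SUZ12 are the other PRC2 core subunits among the members. In BE2C EED had a larger fitted change than either catalytic subunit with both hairpins. EED (chromosome 11, 86244544–86278813, plus strand), the subunit that reads the mark, had 40.2, 40.3 and 40.8 CPM in BE2C shAhR-1 libraries, 28.1, 28.8 and 31.1 CPM in BE2C shAhR-2 libraries and 53.2, 53.0 and 54.7 CPM in BE2C controls. Its Kelly levels were 28.0, 28.8 and 30.8 CPM in libraries labelled shAhR-1, 20.2, 20.5 and 20.8 CPM with shAhR-2 and 30.2, 29.3 and 29.9 CPM in controls. BE2C showed a graded fall with no overlap, by 0.40 ± 0.052 on the log2 scale with shAhR-1 (adjusted p = 7.34e-08) and by 0.85 ± 0.053 with shAhR-2 (adjusted p = 4.96e-16). Kelly EED fell by 0.62 ± 0.059 with shAhR-2 (adjusted p = 1.77e-13), with no call for the label shAhR-1 (-0.04 ± 0.058, adjusted p = 0.571). EED was thus the only PRC2 core subunit whose fitted fall with shAhR-2 was larger in BE2C than in Kelly, with the test of that difference given below. Of its exon bases, 0.941% are shared with the microRNA gene MIR6755.

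SUZ12 (chromosome 17, 31937018–32001045, plus strand), the scaffold of the complex, had 154, 153 and 146 CPM in BE2C shAhR-1 libraries, 123, 130 and 129 CPM in BE2C shAhR-2 libraries and 150, 143 and 152 CPM in BE2C controls. Kelly SUZ12 was at 111, 117 and 113 CPM in libraries labelled shAhR-1, 83.5, 84.7 and 84.3 CPM with shAhR-2 and 105, 111 and 107 CPM in controls. The shAhR-2 libraries lay below all others in both lines. SUZ12 fell with shAhR-2 by 0.21 ± 0.036 on the log2 scale in BE2C (adjusted p = 5.32e-06) and by 0.43 ± 0.035 in Kelly (adjusted p = 6.07e-16). It was not called with shAhR-1 in BE2C (0.03 ± 0.036, adjusted p = 0.492) or in Kelly libraries of that label (0.07 ± 0.034, adjusted p = 0.0717). The Kelly value was called without control library 2 (adjusted p = 0.0311) or library 1 labelled shAhR-1 (adjusted p = 0.0371), under the mean CPM filter (adjusted p = 0.0309) and with halved counts (adjusted p = 0.0481), with a range of 0.0309 to 0.304 over all alternatives. SUZ12 is uncertain because reads can be shared with the near-identical copy SUZ12P1 on the same chromosome (30709299–30790908), which averaged 34.6 ± 1.59 CPM in libraries labelled shAhR-1, 27.3 ± 2.11 with shAhR-2 and 34.8 ± 0.653 in control in Kelly (SD, n = 3). With the counts of SUZ12 and SUZ12P1 summed, the fall with shAhR-2 was 0.19 in BE2C (log2 fold change -0.19) and 0.43 in Kelly (-0.43), and the difference between the control lines was 0.11 in place of 0.38.

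DNMT3A and DNMT3B, which methylate unmodified DNA, both rose in BE2C with shAhR-2, whereas DNMT3A rose and DNMT3B fell in BE2C under shAhR-1 and in Kelly under shAhR-2. DNMT3A (chromosome 2, 25227855–25342590, minus strand) had 129, 127 and 131 CPM in BE2C shAhR-1 libraries, 137, 141 and 142 CPM in BE2C shAhR-2 libraries and 115, 121 and 110 CPM in BE2C controls. Kelly DNMT3A was at 198, 199 and 187 CPM in libraries labelled shAhR-1, 306, 302 and 293 CPM with shAhR-2 and 197, 195 and 199 CPM in controls. Both hairpins lay above control without overlap in BE2C, and in Kelly shAhR-2 alone did. DNMT3A rose in BE2C by 0.17 ± 0.037 on the log2 scale with shAhR-1 (adjusted p = 0.000269) and by 0.30 ± 0.037 with shAhR-2 (adjusted p = 1.11e-08). It rose in Kelly by 0.53 ± 0.030 with shAhR-2 (adjusted p = 3.27e-22), with no call for the label shAhR-1 (-0.03 ± 0.030, adjusted p = 0.391).

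DNMT3B (chromosome 20, 32762385–32809356, plus strand), the methyltransferase of early development, had 8.44, 7.80 and 8.69 CPM in BE2C shAhR-1 libraries, 18.9, 17.4 and 16.2 CPM in BE2C shAhR-2 libraries and 14.7, 12.1 and 12.4 CPM in BE2C controls. In Kelly it had 15.4, 16 and 15.7 CPM in libraries labelled shAhR-1, 16.5, 16.1 and 16.1 CPM with shAhR-2 and 20.1, 20 and 20.7 CPM in controls. The hairpins thus stood on opposite sides of control in BE2C and on the same side, close together, in Kelly. DNMT3B fell by 0.64 ± 0.098 on the log2 scale in BE2C with shAhR-1 (adjusted p = 1.18e-06) and rose by 0.44 ± 0.091 with shAhR-2 (adjusted p = 6.94e-05). In Kelly it fell by 0.37 ± 0.069 in libraries labelled shAhR-1 (adjusted p = 6.20e-06) and by 0.40 ± 0.069 with shAhR-2 (adjusted p = 1.16e-06).

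The ratio of DNMT3A to DNMT3B counts was 15.3, 16.3 and 15.0 in BE2C shAhR-1 libraries, 7.28, 8.12 and 8.77 in BE2C shAhR-2 libraries and 7.81, 10 and 8.92 in BE2C controls. In Kelly it was 12.9, 12.4 and 11.9 in the libraries labelled shAhR-1, 18.5, 18.8 and 18.2 with shAhR-2 and 9.82, 9.78 and 9.65 in control. The ratio was above control in every group except BE2C shAhR-2, which overlapped with it. The differences on the log2 scale were 0.81 in BE2C with shAhR-1 and, in Kelly, 0.34 for the label shAhR-1 and 0.92 with shAhR-2, each with an exact permutation p = 0.1, the smallest possible. For BE2C with shAhR-2 the difference was -0.14 with an exact permutation p = 0.4.

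The TET genes changed by less than 1 on the log2 scale, and differently from each other. TET1 (chromosome 10, 68560656–68694482, plus strand) had 25.6, 27 and 26.4 CPM in BE2C shAhR-1 libraries, 26.8, 28.3 and 28.2 CPM in BE2C shAhR-2 libraries and 33.7, 35.6 and 36.4 CPM in BE2C controls. In Kelly it had 33.7, 35.3 and 29.5 CPM in libraries labelled shAhR-1, 21.9, 23.6 and 22.9 CPM with shAhR-2 and 33.7, 38.8 and 32.7 CPM in controls. Both hairpins lay below control in BE2C, and shAhR-2 alone did in Kelly. TET1 fell in BE2C by 0.41 ± 0.060 on the log2 scale with shAhR-1 (adjusted p = 5.4e-07) and by 0.33 ± 0.059 with shAhR-2 (adjusted p = 9.16e-06). In Kelly it fell by 0.70 ± 0.064 with shAhR-2 (adjusted p = 3.76e-14), with no call for the label shAhR-1 (-0.11 ± 0.062, adjusted p = 0.132). That last value was called without library 2 of that label (adjusted p = 0.0392), with a range of 0.0392 to 0.73 over all alternatives.

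TET2 (chromosome 4, 105145875–105279816, plus strand) had 58.6, 63.1 and 59.6 CPM in BE2C shAhR-1 libraries, 68.9, 78.0 and 79.3 CPM in BE2C shAhR-2 libraries and 62.9, 59.7 and 62.3 CPM in BE2C controls. Kelly TET2 was at 67.9, 69.4 and 67.5 CPM in libraries labelled shAhR-1, 59.8, 62.2 and 59.5 CPM with shAhR-2 and 54.3, 58.7 and 57.4 CPM in controls. It stood above control with shAhR-2 in BE2C and under both hairpin labels in Kelly, where the margin for shAhR-2 was under 1 CPM. TET2 rose by 0.31 ± 0.049 on the log2 scale with shAhR-2 in BE2C (adjusted p = 1e-06) and was higher by 0.26 ± 0.042 under the label shAhR-1 in Kelly (adjusted p = 5.12e-07). It was not called with shAhR-1 in BE2C (-0.02 ± 0.049, adjusted p = 0.781) or with shAhR-2 in Kelly (0.02 ± 0.042, adjusted p = 0.753).

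The hairpins, which target the same gene, were also set against each other, with the Kelly shAhR-1 libraries taken by their label. In BE2C, 9 of 10 members differed between shAhR-1 and shAhR-2, where 72.4% of genes did, 5 higher with shAhR-1 (35.9% of genes) and 4 lower (36.5%). In Kelly 9 of 10 did, where 77.4% of genes did, 7 higher with shAhR-1 (39.3%) and 2 lower (38.2%). The hairpin groups did not overlap for 9 members in BE2C (75.2% of genes) and for 10 in Kelly (79.1%). In Kelly, libraries labelled shAhR-1 were higher than those with shAhR-2 by 3.63 ± 0.043 on the log2 scale for UHRF1, 1.90 ± 0.033 for DNMT1 and 1.65 ± 0.033 for EZH2. In BE2C the same differences were 1.33 ± 0.040 for UHRF1, 1.14 ± 0.029 for DNMT1 and 0.40 ± 0.038 for EZH2. EED and SUZ12 were also higher with shAhR-1 in both lines, by 0.46 ± 0.053 and 0.24 ± 0.036 in BE2C and by 0.58 ± 0.060 and 0.50 ± 0.035 in Kelly. EZH1 was lower with shAhR-1 (log2 fold change -0.41 ± 0.051 in BE2C and -0.59 ± 0.036 in Kelly), as was DNMT3A (-0.13 ± 0.037 and -0.56 ± 0.030). TET2 was lower with shAhR-1 in BE2C (-0.33 ± 0.049) and higher in Kelly (0.24 ± 0.042). DNMT3B differed by -1.08 ± 0.095 in BE2C and was not called in Kelly (0.02 ± 0.071, adjusted p = 0.795). TET1 was higher with shAhR-1 by 0.59 ± 0.065 in Kelly and was not called in BE2C (-0.08 ± 0.060, adjusted p = 0.213). The called differences had adjusted p of 0.00245 or less.

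The lines differed in how the members moved, tested as the fold change in BE2C minus that in Kelly. For shAhR-2 all 10 members differed, 7 with a higher value in BE2C (28.8% of genes) and 3 with a lower one (25.8%), where 54.7% of genes differed. The differences were 1.85 ± 0.061 for UHRF1 (adjusted p = 2.61e-29), 0.83 ± 0.050 for EZH2 (adjusted p = 1.46e-19) and 0.53 ± 0.045 for DNMT1 (adjusted p = 2.41e-14), whose falls were larger in Kelly. DNMT3B, which moved in opposite directions, differed by 0.81 ± 0.11 (adjusted p = 2.36e-08). EED differed by -0.25 ± 0.078 (adjusted p = 0.00478), its fall being larger in BE2C, and DNMT3A by -0.25 ± 0.047 (adjusted p = 9.55e-06), its rise being larger in Kelly. EZH1 differed by -0.18 ± 0.062 (adjusted p = 0.0103), a call lost without BE2C control library 2 (-0.14, adjusted p = 0.06), with a range of 0.000178 to 0.06 over all alternatives. For shAhR-1, 7 of 10 members differed, where 35.7% of genes did, 1 higher (17.5% of genes) and 6 lower (18.2%) in BE2C. The largest of these were -0.42 ± 0.053 for UHRF1 (adjusted p = 5.51e-09) and -0.40 ± 0.048 for EZH2 (adjusted p = 3.38e-09). EZH1 (0.02 ± 0.063), SUZ12 (-0.03 ± 0.050) and DNMT3B (-0.26 ± 0.12, adjusted p = 0.0861) were not called, though DNMT3B was without BE2C control library 2 (-0.31, adjusted p = 0.0467) and with DESeq2 (-0.28, adjusted p = 0.0495, range 0.0467 to 0.331 over all alternatives). AHR did not pass the test of this line difference (-0.69 ± 1.2, adjusted p = 0.721), and no fall of AHR was called in the Kelly libraries labelled shAhR-1. The BE2C counts of AHR were too few for this test to tell whether the lines differed.

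**Figure D4:**
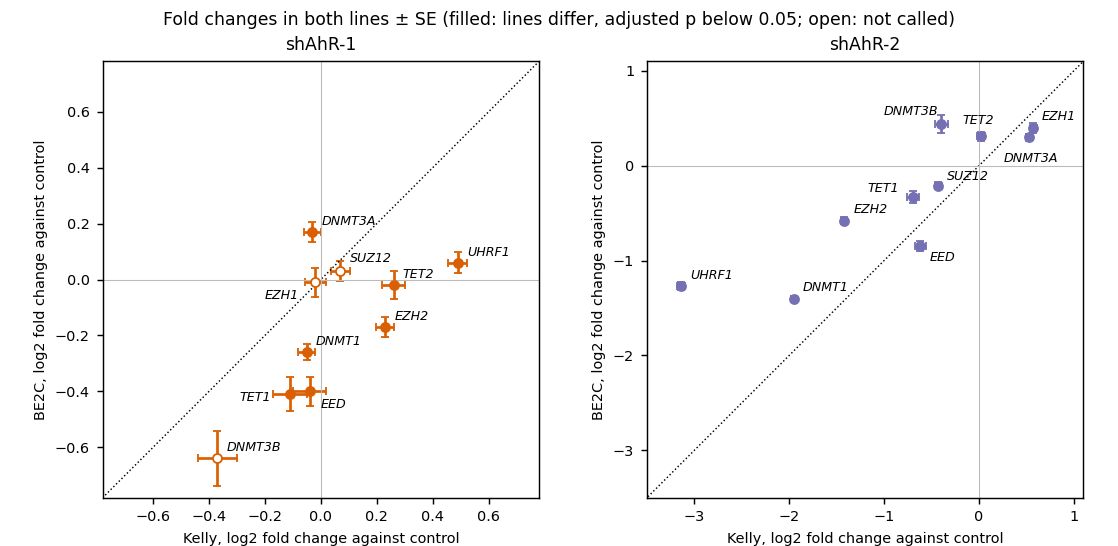
Log2 fold change of each member against control in BE2C (vertical axis) and Kelly (horizontal axis), for shAhR-1 (left) and shAhR-2 (right), with bars of ± 1 SE; the dotted line marks equal change, and filled points are members whose change differed between the lines. With shAhR-2, UHRF1, EZH2 and DNMT1 lie above the line, with larger falls in Kelly, and DNMT3B is raised in BE2C and lowered in Kelly.

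Genes of the cell cycle also changed, with shAhR-1 not always in the direction of the members. Of all genes tested, 27.1% and 37.2% were called lower in BE2C with shAhR-1 and shAhR-2, and 31.0% and 38.2% in Kelly. The shares called higher were 25.2% and 38.0% in BE2C and 29.6% and 37.2% in Kelly. Of 25 S-phase and mitosis genes, 22 fell and 1 rose in BE2C with shAhR-1 (median log2 fold change -0.60), and all 25 fell with shAhR-2 (-1.36). In Kelly 8 fell and 5 rose in the libraries labelled shAhR-1 (median 0.00), and all 25 fell with shAhR-2 (-2.43). TOP2A, the topoisomerase that untangles mitotic chromosomes, fell in all 4 comparisons, with log2 fold changes of -1.40 ± 0.027 and -1.68 ± 0.027 in BE2C with shAhR-1 and shAhR-2, and of -1.19 ± 0.029 and -2.63 ± 0.032 in Kelly. CDK1, the kinase that starts mitosis, fell as well, with -1.23 ± 0.037 and -1.14 ± 0.037 in BE2C and -0.60 ± 0.041 and -2.43 ± 0.046 in Kelly. In the Kelly libraries labelled shAhR-1, UHRF1 (0.49 ± 0.034) and EZH2 (0.23 ± 0.031) were higher. Of the 25 S-phase and mitosis genes there, TOP2A and CDK1 were among the 8 that fell. E2F2 (0.59 ± 0.088) and MCM5 (0.34 ± 0.031) were among the 5 that rose, and 12 were not called. With shAhR-1 in BE2C, UHRF1 was not called (0.06 ± 0.038). The part of the cell cycle change in the falls of UHRF1, DNMT1 and EZH2 was not tested. The median of all genes in these comparisons lay between -0.00604 and 0.0349.

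**Figure D5:**
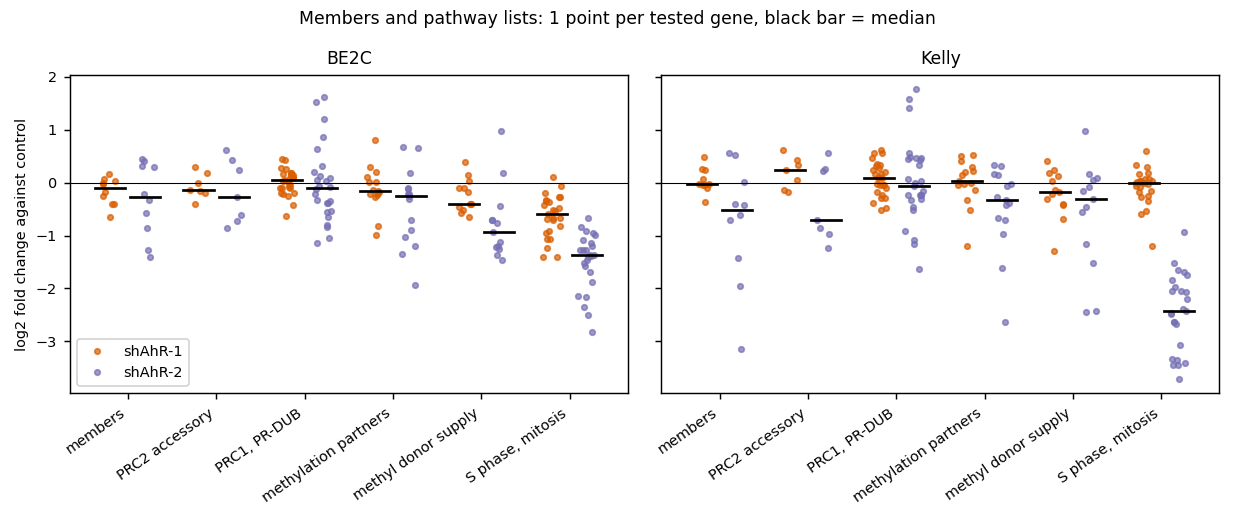
Log2 fold change against control of every tested gene of the members and of 5 of the lists, for shAhR-1 and shAhR-2 in each line; each point is a gene and the black bar is the median of its list. The S-phase and mitosis genes lie below 0 with shAhR-2 in both lines, with medians of -1.36 in BE2C and -2.43 in Kelly, whereas the PRC1 list spreads to both sides of 0.

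The lists that follow are read beside the shares of all genes called, which for shAhR-1 and shAhR-2 were 25.2% and 38.0% higher and 27.1% and 37.2% lower in BE2C, and 29.6% and 37.2% higher and 31.0% and 38.2% lower in Kelly. The list of PRC2 accessory subunits gave 2 to 4 calls in each direction per comparison, which were not tested against those shares. It includes RBBP4 and RBBP7, which are often counted as core subunits. Of 7 listed subunits tested, 2 rose and 4 fell in BE2C with shAhR-1 and 3 rose and 4 fell with shAhR-2. In Kelly 4 rose and 2 fell in the libraries labelled shAhR-1 and 3 rose and 4 fell with shAhR-2. The medians of the list were -0.14, -0.28, 0.24 and -0.70 on the log2 scale, in the same order. These medians include RBBP4 and RBBP7 and are not those of the other listed proteins alone. With shAhR-2, RBBP4 fell in BE2C (-0.72 ± 0.034) and Kelly (-0.98 ± 0.028), as did RBBP7 (-0.61 ± 0.034 and -0.70 ± 0.034). With shAhR-1, RBBP4 fell in both lines (-0.16 ± 0.034 and -0.18 ± 0.027). RBBP7 was not called in BE2C (-0.01 ± 0.034) and was higher in the Kelly libraries of that label (0.24 ± 0.033). JARID2, a substrate and recruiter of PRC2, rose in all 4 comparisons, by 0.19 ± 0.038 and 0.61 ± 0.037 in BE2C and by 0.34 ± 0.031 and 0.57 ± 0.031 in Kelly with shAhR-1 and shAhR-2. PHF1, a Polycomb-like protein, also rose in all 4, by 0.30 ± 0.074 and 0.43 ± 0.073 in BE2C and by 0.61 ± 0.068 and 0.26 ± 0.069 in Kelly. Its relative MTF2 fell in all 4, with -0.40 ± 0.048 and -0.28 ± 0.048 in BE2C and -0.13 ± 0.035 and -0.86 ± 0.036 in Kelly. PHF19, the third Polycomb-like protein, fell in BE2C (log2 fold change -0.20 ± 0.043 and -0.86 ± 0.044) and with shAhR-2 in Kelly (-1.23 ± 0.049) but was higher in the Kelly libraries labelled shAhR-1 (0.42 ± 0.045). EPOP had 0 counts in all libraries and EZHIP at most 6.

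Polycomb repressive complex 1, which binds the mark and ubiquitinates histone H2A, had both rises and falls in each comparison, at shares that were not tested against those of all genes. Of its subunits and those of the opposing deubiquitinase, 8 of 26 rose and 6 fell in BE2C with shAhR-1 (median 0.04), and 8 rose and 13 fell with shAhR-2 (median -0.10). In Kelly 12 of 27 rose and 7 fell in the libraries labelled shAhR-1 (median 0.09), and 10 rose and 12 fell with shAhR-2 (median -0.07). CBX8, a chromodomain subunit, rose in all 4 comparisons, by 0.25 ± 0.089 and 1.21 ± 0.085 in BE2C and by 0.20 ± 0.054 and 1.77 ± 0.05 in Kelly. BMI1, a core subunit, rose by 0.45 ± 0.048 and 0.64 ± 0.048 in BE2C and by 0.56 ± 0.045 and 0.43 ± 0.045 in Kelly. ASXL2, a partner of the deubiquitinase BAP1, fell with shAhR-2 in BE2C (-0.80 ± 0.04) and Kelly (-0.51 ± 0.036). Of the H3K27 demethylases, chosen for naming after their values were seen, KDM6B rose with shAhR-1 (0.42 ± 0.041 in BE2C and 0.30 ± 0.038 in Kelly) and fell with shAhR-2 (-0.67 ± 0.042 and -0.25 ± 0.038). KDM6A rose with shAhR-2 in BE2C (0.65 ± 0.048) and was not called elsewhere.

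Among partners of DNA methylation, no test was made of whether the list differs from the shares of all genes given above. Of 15 tested, 3 rose and 9 fell in BE2C with shAhR-1 (median -0.15) and 3 rose and 12 fell with shAhR-2 (median -0.25). In Kelly 7 rose and 4 fell in the libraries labelled shAhR-1 (median 0.04), and 2 rose and 9 fell with shAhR-2 (median -0.33). HELLS, the chromatin remodeller needed for DNA methylation of repeats, fell in all 4, with -0.99 ± 0.041 and -1.93 ± 0.043 in BE2C for shAhR-1 and shAhR-2 and -0.52 ± 0.037 and -2.63 ± 0.042 in Kelly. TDG, the glycosylase that removes TET products, also fell in all 4, with -0.82 ± 0.039 and -0.30 ± 0.038 in BE2C and -1.2 ± 0.042 and -0.28 ± 0.039 in Kelly, the larger value standing with shAhR-1 in both lines. DNMT3L, the germline cofactor of DNMT3A and DNMT3B, had 0 counts in all libraries.

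Enzymes of the metabolism of the methyl donor S-adenosylmethionine and of folate were also counted, beside the same shares of all genes. The list includes PEMT and GNMT, which use S-adenosylmethionine and do not supply it. Of 13, 9 fell and 0 rose in BE2C with shAhR-1 (median -0.41), 11 fell and 2 rose with shAhR-2 (-0.93), 3 rose and 7 fell under the label shAhR-1 in Kelly (-0.18), and 9 fell and 1 rose in Kelly with shAhR-2 (-0.31). MTHFD1, a folate-converting enzyme, fell in all 4 comparisons, with -0.41 ± 0.03 and -1.19 ± 0.031 in BE2C and -0.42 ± 0.03 and -0.56 ± 0.03 in Kelly. SHMT2, the mitochondrial serine hydroxymethyltransferase, did so too, with -0.58 ± 0.04 and -1.37 ± 0.041 in BE2C and -1.29 ± 0.04 and -0.15 ± 0.037 in Kelly. SHMT1, its cytosolic counterpart, fell in Kelly by 0.31 ± 0.074 in the libraries labelled shAhR-1 and by 1.51 ± 0.08 with shAhR-2, the reverse order of SHMT2.

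Genes known to be silenced by these systems gave few readable values. Of 18 germline genes that promoter methylation keeps silent in body cells, 3 passed the filter on low counts in BE2C and 4 in Kelly, and none rose in any of the 4 comparisons. Those that fell included TDRD1 in BE2C (log2 fold change -0.43 ± 0.036 for shAhR-1 and -0.89 ± 0.037 for shAhR-2) and MAGEA1 in Kelly (-0.80 ± 0.051 and -0.81 ± 0.051). Both were expressed in the controls of that line, at 161 ± 5.55 CPM for TDRD1 in BE2C and 59.0 ± 5.08 CPM for MAGEA1 in Kelly (SD, n = 3), and both had 0 counts in the controls of the other. Among 4 genes reported to be repressed by EZH2 in neuroblastoma, named here after their values were seen, 3 passed the filter in BE2C and 4 in Kelly, and none was called in the same direction in all comparisons that tested it. NGFR, a neurotrophin receptor, rose in BE2C with shAhR-2 (log2 fold change 4.42 ± 0.23) and fell in the Kelly libraries labelled shAhR-1 (-2.32 ± 0.22), with no call for shAhR-1 in BE2C (0.48 ± 0.32) or shAhR-2 in Kelly (0.06 ± 0.17). RUNX3, a runt-family factor tested in Kelly alone, fell in the libraries labelled shAhR-1 (-1.06 ± 0.071), with no call for shAhR-2 (0.07 ± 0.065). CLU, a secreted chaperone, fell in BE2C with shAhR-1 (-0.41 ± 0.040) and rose in Kelly with shAhR-2 (0.74 ± 0.051), with no call for shAhR-2 in BE2C (-0.08 ± 0.039) or the Kelly libraries labelled shAhR-1 (-0.09 ± 0.054). CASZ1, a zinc-finger factor, fell with shAhR-2 in BE2C (-1.0 ± 0.11) and Kelly (-0.14 ± 0.051) and rose under the label shAhR-1 in Kelly (0.18 ± 0.050), with no call for shAhR-1 in BE2C (-0.05 ± 0.11).

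Markers of other cell types were read beside these values. The summed level of 9 Schwann cell and glial genes was 26.6 to 28.5 CPM with shAhR-1, 73.8 to 82.8 CPM with shAhR-2 and 22.9 to 26.7 CPM in control in BE2C, and 16.9 to 20.3, 73.8 to 79.1 and 30 to 31.6 CPM in Kelly. PMP22 made up most of that sum in every group, at 64.1 ± 4.82 CPM in BE2C and 66.9 ± 2.56 CPM in Kelly with shAhR-2 (SD). Of the listed genes tested, 5 of 7 rose and 0 fell in BE2C with shAhR-2, and 5 of 6 rose and 1 fell in Kelly. SOX10 was not called in BE2C with shAhR-2 (log2 fold change 0.92 ± 0.65, adjusted p = 0.206) and was not tested in Kelly. FOXD3 was the gene that fell in Kelly (-1.44 ± 0.52, adjusted p = 0.0118). CDH19 of that list was at 0 in every group. Fibroblast genes summed to 259 to 269, 444 to 455 and 225 to 234 CPM in BE2C and to 285 to 308, 416 to 424 and 367 to 400 CPM in Kelly, with FAP or COL1A2 at 0 in every group. Leukocyte genes stayed at or below 7.72 CPM, with HLA-DRA at 0 in every group. The summed neuroblastoma markers were lower in the hairpin groups, at 3862.7 to 3919.3, 2785.7 to 2804.5 and 4162.5 to 4352.2 CPM in BE2C and at 3866.3 to 3934.9, 5394.3 to 5483.5 and 6263.3 to 6602.3 CPM in Kelly. The part of these shifts in the members' values was not tested.

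The genes whose pattern was most like each member were sought by Pearson's r of log-CPM over the 18 libraries with the mean of each line subtracted, among 9673 genes. The points share libraries and groups, so r is a description. DNMT1 was most like YWHAQ (0.999) and RRM2 (0.997), UHRF1 most like MCM5 (0.998) and SMS (0.996), and EZH2 most like CHEK1 (0.997) and CDK2AP1 (0.996). EED was most like DHX9 (0.992) and TAF5 (0.989), SUZ12 most like SEM1 (0.981) and SYNPO2 (0.978), and TET1 most like ERI2 (0.968) and IQGAP3 (0.964). EZH1 was most like RICTOR (0.981) and GLCCI1 (0.980), and DNMT3A most like RFNG (0.986) and HAGHL (0.982). DNMT3B, with PDLIM5 (0.959) and CMTM3 (0.955), and TET2, with CNOT6 (0.927) and ETV6 (0.924), had the lowest best matches of the 10.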

How the data were processed

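RNA of 18 libraries was measured. The deposited values are raw counts per gene in 1 table for each line, made by the authors and not normalized. The miRNeasy kit was used for total RNA and RNA HyperPrep, with ribosomal RNA removed by RiboErase, for the libraries, per the labels' protocols. Per the submitters' processing notes, CASAVA 1.8.2, STAR 2.7.9a and build GRCh38.p7 were used. The sources used here do not name the counting tool, annotation or strand setting. Even numbers made up 68.3% to 72.5% of counts between 1 and 20, so mates may each have been counted, and halved counts were tried.

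Each line was fitted alone in edgeR 4.0.16 (R 4.3.3) (filterByExpr, TMM, glmQLFit, glmQLFTest), with calls at an adjusted p below 0.05 (Benjamini-Hochberg, over all genes tested). Differences between lines came from 1 fit of all 18 libraries. CPM values use TMM library sizes over all 18, and exon lengths and locations are from GENCODE release 29. Count ratios had 0.5 added to each count and were tested with the exact two-sided permutation test. The fits were also run on simulated counts in which far fewer genes were changed than were called in these data. How the fits behave when most genes change was not tested. Alternatives were RLE size factors, other filters, a replicate block, only the groups compared, DESeq2 1.42.0, halved counts, no mitochondrial genes, each library left out in turn and, chosen after seeing the data, SUZ12 and SUZ12P1 summed.

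The members and lists were chosen with earlier results of these data known. AHR and all members were named in every comparison, with up to 2 list genes of each direction per line, those called with both hairpins with the largest smaller fold change, and the 2 genes most like each member with a mean CPM of at least 5 in each line. Not all of the genes so picked from the lists are named.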

Additional observations from a re-analysis of the deposited data

Results flagged for a closer look

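The 17 values here were taken up because the response to a hairpin, tested as the log2 fold change in BE2C minus that in Kelly, differed between the lines (edgeR quasi-likelihood test with Benjamini-Hochberg adjustment). For shAhR-2, the methylation maintenance genes and EZH2 fell further in Kelly, with differences of 1.85 for UHRF1, 0.83 for EZH2 and 0.53 for DNMT1. SUZ12 (0.21) and TET1 (0.35) also fell further in Kelly. DNMT3B differed by 0.81, with a rise in BE2C and a fall in Kelly, and TET2 by 0.27, with a rise in BE2C and no call in Kelly. EED differed by -0.25, with the larger fall in BE2C, and EZH1 (-0.18) and DNMT3A (-0.25) rose further in Kelly.

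For shAhR-1, the difference was -0.42 for UHRF1, -0.40 for EZH2 and -0.27 for TET2, each of which was higher in the Kelly libraries of that label, while EZH2 fell in BE2C and the other two were not called there. It was -0.35 for EED, -0.30 for TET1 and -0.21 for DNMT1, which fell in BE2C and were not called in Kelly. DNMT3A differed by 0.21, with a rise in BE2C. AHR had 18, 11 and 22 counts in the Kelly libraries labelled shAhR-1 and 4, 26 and 29 in the Kelly controls. With 3 libraries in each group, no library was examined as an outlier.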

How the results depend on the processing

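All 360 alternative counts of calls stayed within 1.5 times their main value, and all 64 alternative count ratios kept their direction and side of the threshold, which no exact test of 3 against 3 could pass. Same-numbered libraries of a line did not deviate together (r of -0.0137 to 0.0243 over 18 pairs), so replicate numbers were not used as a pairing. With the replicate block, 6 and 10 members were called in BE2C with shAhR-1 and shAhR-2 and 4 and 9 in Kelly, and all genes called numbered 8110, 11738, 9495 and 11869; the block changed no call of a member. Over all alternatives, 6 to 7 and 10 members were called in BE2C with shAhR-1 and shAhR-2, 4 to 5 and 9 in Kelly. Of 1809 alternative values of single members, 1779 kept direction and call, and the 19 that changed sign were never called. EZH1 with shAhR-1 in BE2C was 0.0039 under the mean CPM filter of 1 and -0.061 to 0.037 with a library left out, and in Kelly -0.046 to 0.0046 with a library left out. The EZH1 difference between lines for shAhR-1 was -0.0022 with RLE and with DESeq2, -0.011 unfiltered, -0.0055 under the mean CPM filter, and -0.032 to 0.063 with a library left out; for SUZ12 it was 0.023 with SUZ12P1 summed. DNMT3B between hairpins in Kelly was -0.0014 with RLE and -0.0013 with DESeq2. TET2 in Kelly with shAhR-2 was -0.021 to 0.036 with a library left out, and TET1 between control lines 0.0054 unfiltered and -0.12 to 0.0037 with a library left out. Calls of EZH1, SUZ12, UHRF1, TET1 and DNMT3B that turn on 1 library, a filter, halved counts or DESeq2 are given with the members above, and TET2 between control lines was called unfiltered (0.12) and under the mean CPM filter (0.10). The cause of these changes was not tested. Depth limits AHR, at 0 to 29 counts, not the members.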
